A study of Mus musculus with 10 samples.

Results

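In all, 10 genes that mark pericytes were followed through the transcriptomes of brain endothelial cells (BECs), which had been isolated from cortex of female mice at 1 year of age. The genes are *Pdgfrb*, *Notch3*, *Cspg4*, *Kcnj8*, *Abcc9*, *Rgs5*, *Vtn*, *Anpep*, *Higd1b* and *Ndufa4l2*, a list drawn up from general knowledge of the cell type. Earlier results of these data were known when the list was chosen. All 10 of the 10 listed genes were among the 14106 genes of the table and were found by their Ensembl identifiers. The table covers 10 libraries, 5 of APP/PS1 and 5 of control animals of the same age, with the replicate numbers 1 to 5 in each group. APP/PS1 mice model Aβ amyloidosis, express their transgenes ubiquitously and not in the endothelium alone, and deposit Aβ in the neocortex and hippocampus with age. Control mice are wild type in the sample labels. Both groups are on the same C3H/BL6 background. The labels give no treatment for either group. Cells were selected with CD31 microbeads after removal of myelin from the dissociated cortex and are described as CD31+CD45−. Pericytes do not carry CD31, so the selection was not made for them.

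Pericytes wrap the capillaries of the brain and share a basement membrane with the endothelium. Endothelial cells secrete PDGF-B, which holds pericytes on the vessel through the receptor encoded by *Pdgfrb*, and present Jagged ligands to Notch3 on the pericyte surface. Pericytes in turn help to keep the blood–brain barrier tight and regulate capillary diameter, and their loss from the vessel has been described in Alzheimer's disease.

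Values are log2 CPM, the log2 of counts scaled to library size, with the batch correction of the authors included. A difference of 1 is a 2-fold difference. Converted back, the libraries held between 22371766 and 126686149 adjusted counts, with replicate 1 of both groups the shallowest. Each replicate number joins the control and the APP/PS1 library of 1 batch, here called a pair. The batch correction set the means of the pairs nearly equal, so that in a pair a high control library faces a low APP/PS1 library by construction, and only the 5 differences within pairs are independent. The sources used here do not state how many mice gave each library, so the unit is the library and not the mouse. Each p-value from a test with pairs rests on the spread of the 5 differences within pairs. In the limma fits this spread was combined with a variance estimated over all genes. The SD of either group mostly reflects these same differences and is not an independent spread of that group. The libraries bore their endothelial label. The 20 endothelial marker genes had a median of 8.10 log2 CPM per kb of exon in control and 8.19 in APP/PS1 libraries, and the 10 pericyte markers had a median of 2.33 and 1.52.

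The start regions of 5 of the genes are shown first, because these genes belong to the main roles described below. The stretches were taken from RefSeq windows of GRCm38.p6 before the transcription start, without exon bases, and run 5′ to 3′ on the strand of the gene. They cover chr1:169655251-169655500 (+) for *Rgs5*, chr11:78498870-78499090 (+) for *Vtn*, chr6:142702316-142702524 (−) for *Abcc9*, chr6:142571615-142571864 (−) for *Kcnj8* and chr17:32166891-32167140 (−) for *Notch3*. Capitals mark matches on either strand to the motifs described after them.
Rgs5: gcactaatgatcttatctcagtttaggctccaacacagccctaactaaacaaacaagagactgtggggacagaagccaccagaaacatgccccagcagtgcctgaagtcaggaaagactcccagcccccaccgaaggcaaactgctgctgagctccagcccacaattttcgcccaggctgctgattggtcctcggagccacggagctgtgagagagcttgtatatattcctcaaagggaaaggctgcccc
Vtn: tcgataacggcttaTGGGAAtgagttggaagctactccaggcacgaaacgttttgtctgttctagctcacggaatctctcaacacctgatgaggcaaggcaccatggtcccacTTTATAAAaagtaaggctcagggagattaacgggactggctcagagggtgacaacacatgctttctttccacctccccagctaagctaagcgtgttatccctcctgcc
Abcc9: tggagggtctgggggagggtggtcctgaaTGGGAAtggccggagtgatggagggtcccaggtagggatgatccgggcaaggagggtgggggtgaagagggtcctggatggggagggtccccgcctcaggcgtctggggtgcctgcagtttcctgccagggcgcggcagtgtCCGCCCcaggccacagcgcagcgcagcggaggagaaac
Kcnj8: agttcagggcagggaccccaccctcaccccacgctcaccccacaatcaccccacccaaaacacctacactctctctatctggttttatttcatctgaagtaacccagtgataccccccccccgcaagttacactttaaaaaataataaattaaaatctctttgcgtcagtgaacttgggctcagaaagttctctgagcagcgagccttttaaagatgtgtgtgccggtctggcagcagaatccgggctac
Notch3: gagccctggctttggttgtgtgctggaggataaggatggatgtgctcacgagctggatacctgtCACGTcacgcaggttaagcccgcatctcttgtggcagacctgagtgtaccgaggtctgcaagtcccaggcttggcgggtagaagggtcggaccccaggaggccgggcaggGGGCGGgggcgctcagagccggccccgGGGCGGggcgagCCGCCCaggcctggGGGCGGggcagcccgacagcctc

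Windows of 7 of the 10 genes were matched, and those of *Pdgfrb*, *Higd1b* and *Ndufa4l2* were not. Short motifs, 5 in number, were searched on both strands. The core TGGGAA, which RBPJ, the DNA-binding partner of Notch, can bind, was present once each in the *Abcc9* and *Vtn* windows, in 2 of the 7 windows against 21.6% of 32851 windows of 250 bases. The core ACGTG of hypoxia response elements was present in 1 of 7 windows, that of *Notch3*, against 16.6%. The CArG box of smooth muscle genes was in 0 of 7 windows against 1.47%. A GC box (GGGCGG) was found in 4 of 7 windows against 32.7%, with 4 matches at *Notch3*, 3 at *Anpep*, 2 at *Cspg4* and 1 at *Abcc9*. TATAAA was present in 1 of 7 windows against 12.4%, that of *Vtn*, where a match on each strand overlaps the other. *Rgs5* and *Kcnj8* held no match to these letters.

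Compared per kb of exon, the 10 genes covered a wide range of levels in control libraries. *Rgs5* led with 6.70 ± 0.34 log2 CPM per kb (SD, n = 5), followed by *Vtn* with 5.26 ± 0.36. *Notch3* (2.84 ± 0.33), *Higd1b* (2.77 ± 0.37) and *Pdgfrb* (2.63 ± 0.36) formed a middle group. *Ndufa4l2* (2.02 ± 0.32), *Abcc9* (1.47 ± 0.40), *Kcnj8* (1.06 ± 0.38), *Anpep* (0.97 ± 0.12) and *Cspg4* (0.60 ± 0.31) were lower. Of the 9 neighbouring places in this order, 7 kept their order in each of the 5 control libraries. The exceptions were *Notch3* over *Higd1b*, with a difference of 0.07 ± 0.15 and the stated order in 3 of 5 libraries, and *Kcnj8* over *Anpep*, with 0.10 ± 0.28 and again 3 of 5. Averaged over all 10 libraries, each of the 10 genes lay below the range of the 20 endothelial markers, which ran from 6.46 for *Emcn* to 10.9 for *Slc2a1*. *Rgs5* came nearest to it, with 6.32, although its mean of 6.70 in control libraries lay above the lower end. *Cspg4* was farthest, with 0.19.

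**Figure D1:**
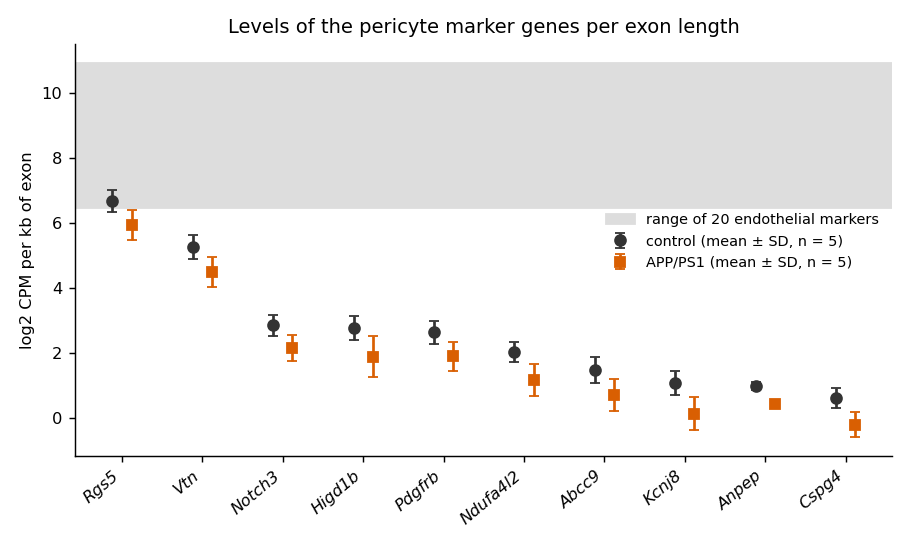
Level of each pericyte marker gene in log2 CPM per kb of exon, on the vertical axis, as mean ± SD of 5 control libraries (black circles) and 5 APP/PS1 libraries (orange squares), with genes ordered by the control mean and the grey band giving the range of the means of 20 endothelial markers. Rgs5 and Vtn stand above the other 8 genes, and the APP/PS1 mean of each gene is below its control mean.

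The comparison of APP/PS1 with control asks how the transcriptome of the isolated vessel cells differs in a mouse with amyloid deposits. The mean of each of the 10 pericyte markers was lower in APP/PS1 libraries, with differences between −0.55 for *Anpep* and −0.94 for *Kcnj8* on the log2 scale. The median over the 10 genes was −0.77, a level 1.71-fold higher in control, while the median of all 14106 genes was −0.00377. A difference below −0.5, which all 10 markers had, was found for 4.53% of all genes. No marker passed the test of limma after Benjamini-Hochberg adjustment over all genes, at a threshold of 0.05, and no gene of the table did (0.0% of 14106 genes), with limma-voom as well as with limma. A fit without the pair term called 648 genes and 1 marker. Without adjustment, 8 of the 10 markers had a p under 0.05, all with the lower mean in APP/PS1, against 5.91% of all genes in that direction and 2.13% in the other. All 10 markers were lower in APP/PS1 in at least 4 of 5 pairs, against 23.1% of all genes. In bulk RNA, fewer pericytes in the preparation and less RNA of these genes per pericyte cannot be told apart.

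**Figure D2:**
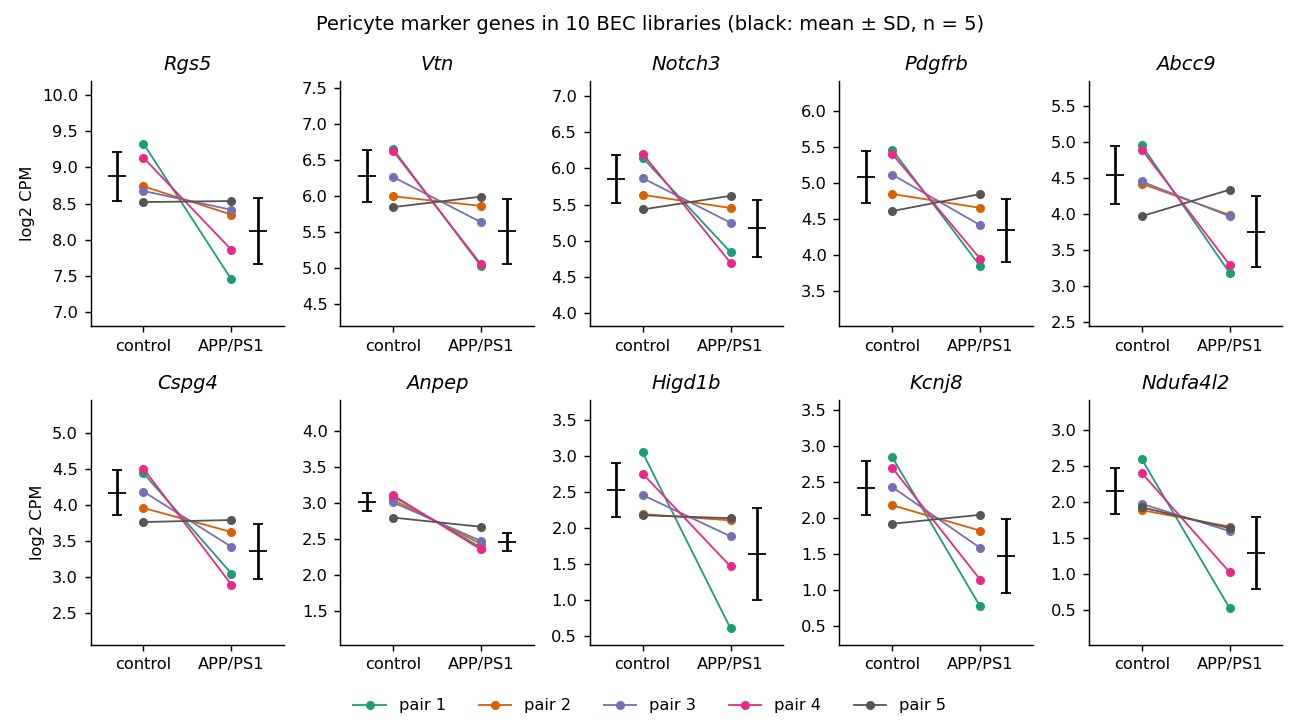
Level of each pericyte marker gene in log2 CPM in the 5 control and 5 APP/PS1 libraries, with a coloured line joining the libraries of a pair and black bars giving the mean ± SD of the group (n = 5); the vertical axes have the same length in log2 units but different positions. Lines descend steeply in pairs 1 and 4 for most genes and are nearly level in pair 5, and Anpep shows the narrowest spread of all 10 genes.

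*Pdgfrb*, the receptor tyrosine kinase for PDGF-B on mural cells, lies on chromosome 18 (61045150 to 61085061, + strand, GRCm38). Its levels in control replicates 1 to 5 were 5.46, 4.84, 5.11, 5.40 and 4.61 log2 CPM, and those of APP/PS1 replicates 1 to 5 were 3.84, 4.65, 4.41, 3.95 and 4.84. Control 1 and 4 were the highest libraries and APP/PS1 1 and 4 the lowest, while pair 5 ran the other way and made the groups overlap. The mean was 5.08 ± 0.36 in control and 4.34 ± 0.43 in APP/PS1 (SD, n = 5), a difference of −0.75 with a 95% interval from −1.48 to −0.01 and an adjusted p of 0.619, lower in 4 of 5 pairs. Intervals of the same kind stand in brackets after the differences of the other markers. *Cspg4* encodes NG2, a proteoglycan on the surface of pericytes that oligodendrocyte precursors (OPC) also carry (chromosome 9, 56865033 to 56899870, + strand). It read 4.45, 3.96, 4.19, 4.51 and 3.77 log2 CPM in control 1 to 5 and 3.05, 3.63, 3.42, 2.90 and 3.80 in APP/PS1 1 to 5. The order of the libraries resembled that of *Pdgfrb*, with pair 5 nearly equal. Its difference was −0.81 (−1.46 to −0.17, adjusted p = 0.569, lower in 4 of 5 pairs).

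The further genes of the PDGF pathway, taken as a list, had a median near 0. Among 20 listed ligands, receptors and signal proteins, all in the table, 8 were lower and 12 higher in APP/PS1, with a median difference of 0.05. An unadjusted p under 0.05 was found for 1, with the lower mean, against 5.91% of all genes in that direction. That gene was *Lrp1*, a large endocytic receptor, whose differences in pairs 1 to 5 were −1.18, −0.24, −0.70, −0.72 and 0.07, with control libraries at 5.13 ± 0.23 log2 CPM and APP/PS1 libraries at 4.57 ± 0.25 (adjusted p = 0.569, lower in 4 of 5 pairs). *Pdgfrl*, a receptor-like protein, had a difference of −0.53 (adjusted p = 0.653), and the ligand *Pdgfc* one of −0.49 (adjusted p = 0.736), each lower in 4 of 5 pairs. The ligand *Pdgfb*, made by the endothelium, was at 8.75 ± 0.12 in control and 8.91 ± 0.11 in APP/PS1 (adjusted p = 0.768). A second ligand of the receptor, *Pdgfd*, differed by 0.09 (adjusted p = 0.847). *Pdgfra*, the paralog of *Pdgfrb* that marks OPC and fibroblasts, differed by −0.50 (adjusted p = 0.714) and was lower in 3 of 5 pairs, with 0.13 in pair 4 where *Pdgfrb* had −1.45.

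*Notch3*, the Notch receptor of mural cells, spans 32120820 to 32166852 on chromosome 17 (− strand). Control 1 to 5 held 6.15, 5.63, 5.87, 6.21 and 5.43 log2 CPM, and APP/PS1 1 to 5 held 4.84, 5.45, 5.25, 4.69 and 5.62. The groups overlapped through pair 5 alone, where the APP/PS1 library was the higher. The difference of −0.69 (−1.36 to −0.02, adjusted p = 0.614) was shared by 4 of 5 pairs. *Gm17276* overlaps 6.03% of the exon bases of *Notch3*, and 4.93% of its stretches of 50 bases also occur in other genes, so part of its counts is uncertain.

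Of the receptors related to *Notch3*, *Notch1* differed by 0.07, *Notch2* by 0.05 and *Notch4* by 0.10, with adjusted p between 0.815 and 0.901. The 17 further genes of the Notch pathway divided into 8 lower and 9 higher, with a median of 0.02. An unadjusted p under 0.05 was found for 2 lower and 1 higher, against 5.91% and 2.13% of all genes. *Heyl*, a transcriptional target of Notch3 in mural cells, stood apart from these mostly small differences. It was at 2.92, 2.41, 2.70, 2.90 and 2.21 log2 CPM in control 1 to 5 and at 1.22, 1.90, 1.61, 1.27 and 2.08 in APP/PS1 1 to 5. The groups did not overlap, and the difference was −1.01 (−1.64 to −0.37, adjusted p = 0.537, lower in 5 of 5 pairs). *Nrarp*, a feedback inhibitor of Notch, differed by −0.18 (adjusted p = 0.569, lower in 5 of 5 pairs). The targets *Hes1* and *Hey1*, which endothelial cells also express, differed by 0.21 (higher in 5 of 5 pairs, adjusted p = 0.569) and 0.19 (adjusted p = 0.77), and the ligand *Jag1* by 0.16 (adjusted p = 0.772).

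*Kcnj8* and *Abcc9* encode the pore (Kir6.1) and the regulatory subunit (SUR2) of the ATP-sensitive potassium channel of pericytes. They are neighbours on the − strand of chromosome 6, at 142564837 to 142571614 and 142587862 to 142702315. *Kcnj8* measured 2.84, 2.17, 2.43, 2.69 and 1.92 log2 CPM in control 1 to 5 and 0.77, 1.82, 1.58, 1.14 and 2.04 in APP/PS1 1 to 5. APP/PS1 1 and 4 were the lowest libraries, and APP/PS1 5 exceeded control 5. Means of 2.41 ± 0.38 and 1.47 ± 0.51 gave a difference of −0.94 (−1.76 to −0.12, adjusted p = 0.58, lower in 4 of 5 pairs). *Abcc9* measured 4.95, 4.42, 4.45, 4.89 and 3.97 in control and 3.18, 3.99, 3.97, 3.29 and 4.34 in APP/PS1, in the same order of replicates. Pair 5 ran opposite to the others by 0.37, the largest of the 7 positive differences among the markers. Its mean difference was −0.78 (−1.61 to 0.04, adjusted p = 0.65). The level of *Abcc9* exceeded that of *Kcnj8* per kb of exon in all 10 libraries, by 0.41 ± 0.09 in control and 0.56 ± 0.12 in APP/PS1 (0.31 to 0.69 over the libraries). *5330439B14Rik* overlaps 1.89% of the exon bases of *Abcc9*, and 1.95% of its stretches of 50 bases also occur in other genes. The subunits of the pancreatic form of the channel, *Kcnj11* and *Abcc8*, were not analysed here.

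*Rgs5*, which accelerates the shutdown of G protein signals in pericytes, had the highest level of the 10 genes (chromosome 1, 169655501 to 169695813, + strand). It reached 9.33, 8.74, 8.67, 9.14 and 8.52 log2 CPM in control 1 to 5 and 7.45, 8.35, 8.41, 7.86 and 8.53 in APP/PS1 1 to 5. Its lowest library held 3864 adjusted counts and its highest 62154. APP/PS1 5 was level with control 5, and with the 2 libraries of this pair the groups overlapped narrowly. The difference was −0.76 (−1.49 to −0.03, adjusted p = 0.607, lower in 4 of 5 pairs). *Vtn*, the secreted adhesion protein vitronectin (chromosome 11, 78499091 to 78502324, + strand), lay between 5.85 and 6.65 in control and between 5.03 and 5.99 in APP/PS1. Its difference of −0.76 (−1.52 to −0.01, adjusted p = 0.619, lower in 4 of 5 pairs) was close to that of *Rgs5*.

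*Anpep* encodes aminopeptidase N (CD13), a peptidase on the pericyte surface (chromosome 7, 79821803 to 79861059, − strand). Control 1 to 5 held 3.10, 3.05, 3.01, 3.11 and 2.80 log2 CPM, and APP/PS1 1 to 5 held 2.39, 2.44, 2.48, 2.36 and 2.67. Every control library was above every APP/PS1 library. The means of 3.01 ± 0.12 and 2.47 ± 0.12 differed by −0.55 (−0.79 to −0.30), with the smallest p of the markers (limma, adjusted p = 0.373) and a lower level in 5 of 5 pairs. It was the marker called without the pair term (adjusted p = 0.00622, against 0.126 to 0.929 under the other alternatives). Its 5 differences within pairs, from −0.75 to −0.13, had an SD of 0.249, where those of the other 9 markers had SDs between 0.691 and 1.00.

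The last pair of genes encodes small mitochondrial proteins. *Higd1b*, of the hypoxia-inducible domain family (chromosome 11, 102835849 to 102838040, + strand), read 3.05, 2.20, 2.46, 2.76 and 2.18 log2 CPM in control 1 to 5 and 0.61, 2.11, 1.89, 1.47 and 2.14 in APP/PS1 1 to 5. The groups did not overlap, but they were separated by a narrow gap, and APP/PS1 1, with 33 adjusted counts, lay far below its group. *Higd1b* differed by −0.89 (−1.81 to 0.04, adjusted p = 0.645) and was lower in 5 of 5 pairs, with small differences of −0.09 and −0.04 in pairs 2 and 5. *Ndufa4l2*, a hypoxia-induced relative of a subunit of the respiratory chain (chromosome 10, 127514967 to 127517154, + strand), read 2.59, 1.88, 1.97, 2.40 and 1.92 in control and 0.52, 1.65, 1.59, 1.02 and 1.63 in APP/PS1. Again no control library was below any APP/PS1 library. The difference was −0.87 (−1.63 to −0.11, adjusted p = 0.58, lower in 5 of 5 pairs). *Shmt2* overlaps 2.92% of the exon bases of *Ndufa4l2*. The widely expressed paralogs did not follow them, since *Higd1a* differed by 0.21 (adjusted p = 0.577, higher in 5 of 5 pairs) and *Ndufa4* by −0.13 (adjusted p = 0.836).

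*Anpep*, *Higd1b* and *Ndufa4l2* were thus the 3 markers that were lower in all 5 pairs, against 5.0% of all genes (2.99% were higher in all 5), and the 3 whose groups did not overlap, against 4.96% (2.91% in the other direction). With the pair means set equal, both counts describe nearly the same property. For these 3 genes the exact two-sided sign-flip permutation test over the 5 pairs gave p = 0.0625, the smallest value that 5 pairs allow. It gave 0.125 or 0.188 for the other 7.

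The differences varied more between pairs than between genes. Over the 10 markers the median difference was −1.70 in pair 1, −0.28 in pair 2, −0.60 in pair 3, −1.48 in pair 4 and 0.08 in pair 5. Pairs 4 and 5, so unlike here, share 1 batch in the labels. All 10 markers were lower in APP/PS1 in each of the pairs 1 to 4, whereas in pair 5 only 3 were lower and 7 higher. Of all genes, 50.8%, 49.7%, 50.9%, 51.1% and 52.2% were lower in pairs 1 to 5. Of the 50 differences of the markers, 43 were negative, and these are 10 genes in 5 pairs rather than 50 independent values. The differences between pairs made up 86.2% of the sum of squares of the 50 values. The SD was 0.742 between the means of the pairs and 0.28 among the markers around them. *Pdgfrb*, *Vtn* and *Kcnj8* stayed closest to the mean of the markers, with SDs of 0.12, 0.13 and 0.17 around it. *Anpep* departed from that mean by 0.98 in pair 1, 0.65 in pair 4 and −0.32 in pair 2, and *Higd1b* by −0.75 in pair 1. Without pair 1 the median over the markers was −0.53, and without pair 5 it was −1.0. Without pair 1 or without pair 4, 1 marker instead of 8 had an unadjusted p under 0.05, and without pair 3 it was 4. That all 10 markers were lower in every remaining pair without pair 5 only restates the signs given above. Shares over all genes are not given for these counts with a pair left out.

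**Figure D3:**
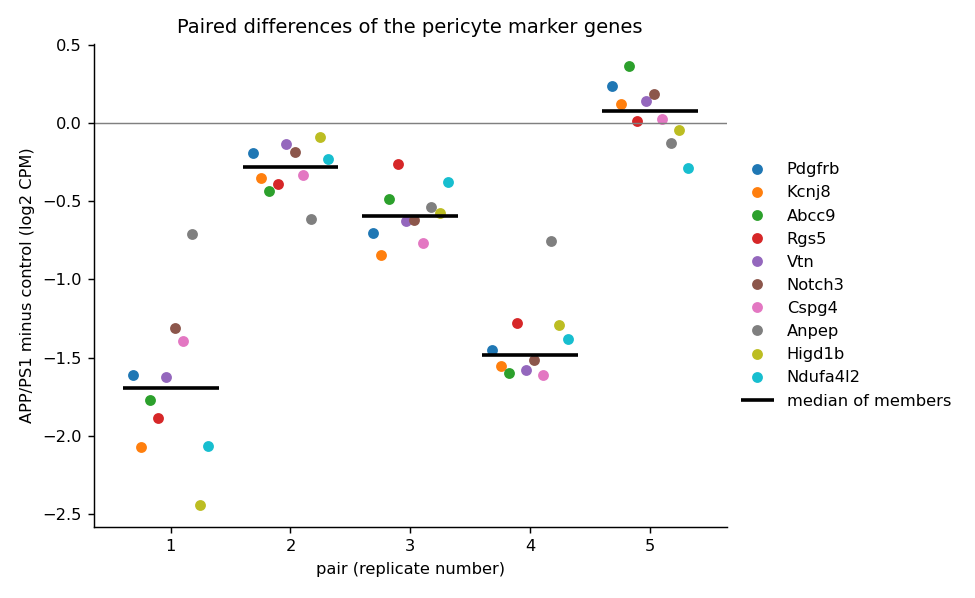
Difference between the APP/PS1 and the control library of a pair, in log2 CPM, for each of the 10 pericyte marker genes (coloured points) in pairs 1 to 5, with the black bar giving their median and the grey line marking no difference. The 10 genes move together from pair to pair, with medians of −1.70 and −1.48 in pairs 1 and 4 and 0.08 in pair 5, and Anpep (grey) departs from the others in pairs 1 and 4.

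Further genes of mural cells outside the 10 markers were read in the same way. Of 32 other pericyte genes 30 were in the table, and 26 were lower and 4 higher in APP/PS1, with a median of −0.63. An unadjusted p under 0.05 was found for 14, all lower, against 5.91% of all genes in that direction. In all 5 pairs 9 were lower, against 5.0% of all genes. The medians over the 30 genes in pairs 1 to 5 were −1.15, −0.12, −0.41, −0.93 and −0.01, the order seen with the markers. *Rgs4*, like *Rgs5* a regulator of G protein signals, had a difference of −0.77 (adjusted p = 0.537, lower in 5 of 5 pairs). *Atp13a5* differed by −0.72 (adjusted p = 0.682) and *Cox4i2*, a subunit of cytochrome c oxidase, by −0.67 (adjusted p = 0.563). The 4 genes with the higher mean in APP/PS1 were *Foxf2* (0.06), *Foxc1* (0.08), *Gper1* (0.12) and *Mcam* (0.06), which are named here after their values were seen. The summed level of the 30 genes, to which the most abundant ones contribute most, ranged only from 9.74 to 9.86 in control and from 9.64 to 9.74 in APP/PS1.

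Genes of vascular smooth muscle, the contractile mural cells of arterioles, had lower values as well, though none passed the adjusted threshold. Among 12 of 14 listed genes in the table, 10 were lower and 2 higher, with a median of −0.69. Of these, 8 had an unadjusted p under 0.05, all lower, against 5.91% of all genes in that direction. *Acta2*, smooth muscle actin, was at 5.10 ± 0.20 in control and 4.25 ± 0.23 in APP/PS1, a difference of −0.84 (adjusted p = 0.418, lower in 5 of 5 pairs). *Tagln* differed by −0.65 (adjusted p = 0.537) and *Myh11*, smooth muscle myosin, by −0.77 (adjusted p = 0.553). The medians in pairs 1 to 5 were −1.05, −0.08, −0.66, −1.34 and −0.16. The summed level ranged from 9.46 to 9.62 in control and from 9.29 to 9.43 in APP/PS1.

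Signals between endothelium and pericytes other than PDGF and Notch had, as a list, a median near 0. Of 17 genes of the TGF-β, angiopoietin and related pathways, all in the table, 4 were lower and 13 higher, with a median of 0.06. *Tgfbr1*, a TGF-β receptor, differed by 0.11 (adjusted p = 0.60) and *Mfsd2a*, the lipid transporter of barrier endothelium, by 0.18 (adjusted p = 0.689). *Angpt1*, a ligand that mural cells make, differed by −0.12 (adjusted p = 0.859) and its endothelial receptor *Tek* by 0.08 (adjusted p = 0.794). The 20 endothelial markers themselves had a median of 0.02, with 6 lower and 14 higher, and pair medians between −0.06 and 0.12. Their summed level was 15.20 to 15.30 in control and 15.18 to 15.29 in APP/PS1, where that of the 10 pericyte markers was 9.08 to 9.88 and 8.12 to 9.14. The smallest p of this list was that of *Vwf* (−0.30, adjusted p = 0.581), and *Sox17* differed by 0.20 (adjusted p = 0.671).

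**Figure D4:**
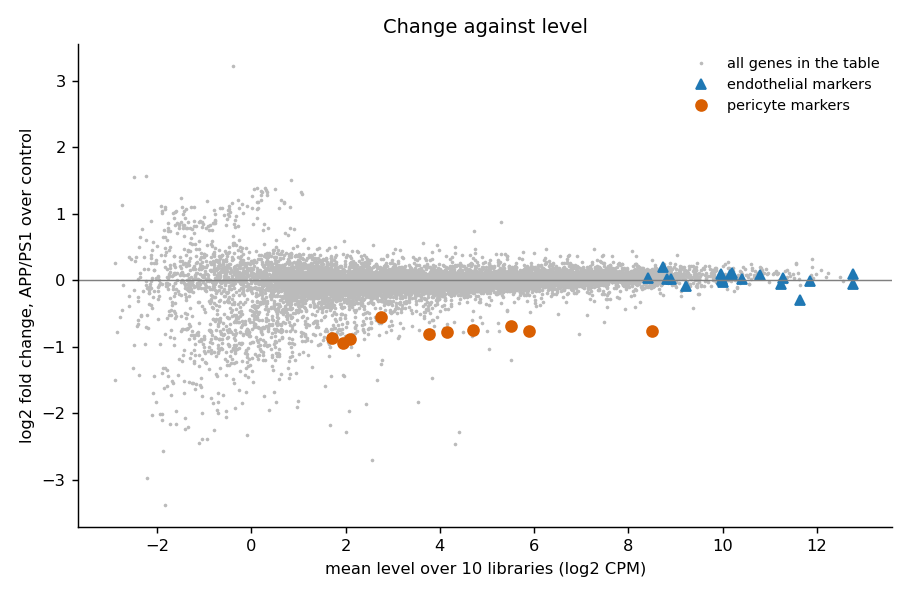
Log2 fold change of APP/PS1 over control (vertical axis) against the mean level over 10 libraries in log2 CPM (horizontal axis) for all 14106 genes (grey), with the 10 pericyte markers in orange and 20 endothelial markers as blue triangles. The pericyte markers lie between −0.55 and −0.94 at all levels from about that of Ndufa4l2 to that of Rgs5, while the endothelial markers surround 0.

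Markers of other cells of the cortex differed along with the pericyte markers, and their part in the result was not tested. For OPC and oligodendrocytes, 13 of 15 listed genes were in the table, 12 lower and 1 higher, with a median of −0.91. Of these, 8 had an unadjusted p under 0.05, all lower, against 5.91% of all genes in that direction. *Sox10*, a transcription factor of this lineage, had −1.12 (adjusted p = 0.195, lower in 5 of 5 pairs), and *Olig1* had −0.97 (adjusted p = 0.454). The pair medians were −1.66, −0.08, −0.90, −1.23 and −0.33, the order of the pericyte markers except that pairs 2 and 5 changed places. The summed level was 6.34 to 8.34 in control and 5.97 to 7.46 in APP/PS1, and *Mag* was at 0 adjusted counts in 1 library, APP/PS1 4. This list touches *Cspg4* in particular, since both cell types make NG2. For astrocytes, 11 of 12 genes were lower and 1 higher with a median of −0.96, and *Gfap* had −0.46 and *S100b* −1.65 (both adjusted p = 0.537). Here the order of the pairs was another, with medians of −2.35, 0.55, −1.53, −0.74 and −0.20, and the summed level was 8.12 to 8.32 in control and 8.10 to 8.35 in APP/PS1.

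Fibroblast genes, of which 7 of 12 were in the table, were all lower, with a median of −0.50 and a summed level of 4.97 to 5.49 against 4.45 to 5.08. *Fbln1* had −0.49 and *Col1a2* −0.66 (both adjusted p = 0.569). Neuronal genes (6 of 12) had a median of −0.48, 5 lower and 1 higher, with *Snap25* at −1.97 (adjusted p = 0.537), *Map2* at −0.39 (adjusted p = 0.569) and a summed level of 6.79 to 7.05 against 6.80 to 7.07. Microglial and leukocyte genes (9 of 14) had a median of −0.03, with 5 lower and 4 higher. Their summed level was 5.95 to 6.18 against 5.86 to 6.10. The study's methods describe enrichment with CD31 microbeads and CD45 staining of part of the cells as a purity check. *Cd68* had 0.26 (adjusted p = 0.726) and *P2ry12* −0.32 (adjusted p = 0.836). Genes that respond to tissue dissociation (14 of 15) had a median of 0.14, with 14 higher, and *Junb* had 0.27 (adjusted p = 0.569) and *Ier2* 0.19 (adjusted p = 0.652), each higher in 5 of 5 pairs. The pair medians of this list were −0.08, −0.02, 0.10, 0.51 and 0.19. Their summed level was 14.36 to 14.68 in control and 14.56 to 14.88 in APP/PS1. Apart from *Mag*, no listed gene in the table fell to 0 adjusted counts in any library. Some came close to it, with 4 adjusted counts in the lowest library of *Snap25* and 6 in that of *S100b* and of *Sox10*.

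**Figure D5:**
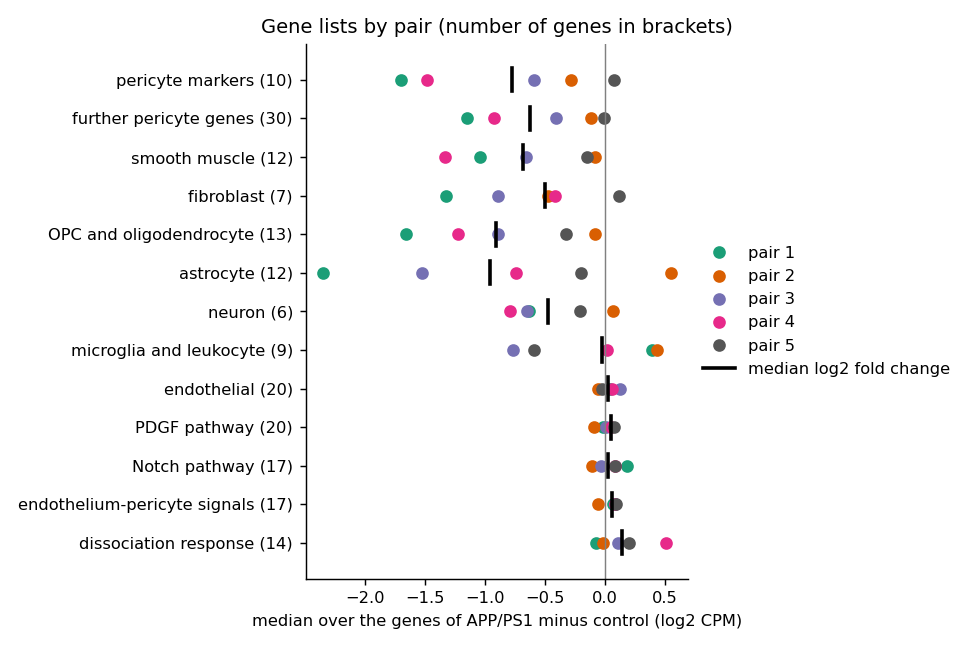
Median over the genes of each list of the difference between the APP/PS1 and the control library, in log2 CPM, for pairs 1 to 5 (coloured points), with a black bar at the median log2 fold change of the list and the number of genes in brackets. Pericyte, smooth muscle, OPC and oligodendrocyte genes have their lowest medians in pairs 1 and 4, astrocyte and fibroblast genes in pairs 1 and 3, and endothelial and pathway lists stay near 0.

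The genes whose 5 differences followed those of the markers most closely were looked for among 10865 genes with a mean of at least 2 log2 CPM. Pearson's r with the mean of the markers was 0.999 for *Chst2*, 0.998 for *Mettl6*, 0.997 for *Pde8b* and 0.993 for *1700020L24Rik* and *Adap2*. The r is a description over 5 pairs that share depth and batch, and it does not measure size. *Pde8b* differed by −0.61 and *Adap2* by −0.61, whereas *Chst2* differed by −0.21, *Mettl6* by −0.06 and *1700020L24Rik* by 0.11. An r of at least 0.95 was reached by 69 genes, or 0.635%, and one of −0.95 or below by 54. These counts are of similar size, and with 5 pairs a high r can arise by chance among so many genes. The 69 genes included 6 of 22 further pericyte genes, 3 of 9 smooth muscle genes, 1 of 2 fibroblast genes, 1 of 18 PDGF pathway genes and 1 of 17 Notch pathway genes at this level of expression. None of the 20 endothelial, 16 endothelium-pericyte signal, 14 dissociation, 7 OPC and oligodendrocyte, 4 astrocyte, 3 neuronal and 3 microglial genes compared reached it.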

How the data were processed

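RNA from CD31+CD45− BECs was sequenced in 5 control and 5 APP/PS1 libraries. By the study's methods and the labels, the authors mapped reads to mm10 (STAR), obtained gene counts (HTSeq-count), filtered low genes by filterByExpr, computed CPM in edgeR and applied ComBat for batch. Tool versions are not given in the sources used here. The deposited values are log2 CPM of 14106 genes, in a joint table and in 10 single files that hold the same numbers. All values converted back to whole adjusted counts (tolerance 0.01, mean prior count 3, a zero at −4.85), which are not reads, so no counting interval was computed. The methods name the batch correction after the CPM step, whereas the values convert back to whole numbers, so the order of the correction is unclear. The prior count understates differences of genes with low counts.

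Groups and replicate numbers came from the labels. The study's supplement shows 5 batches, each with the control and APP/PS1 library of 1 replicate number, and the labels give 4, so the replicate number was used as the pair. The median gene had an SD of 0.00353 log2 CPM over the pair means and of 0.0863 around them, because batch means had been set equal, so a correlation of paired libraries cannot check the pairing. limma 3.58.1 in R 4.3.3 was run on all genes (lmFit, then eBayes without a trend) with genotype and pair as terms. The fit left 4 residual degrees of freedom, to which eBayes added 1.80 prior degrees of freedom estimated over all genes. The p-values were adjusted by Benjamini-Hochberg at 0.05. Intervals are 95% intervals of this fit, with the t quantile from scipy 1.17.1. An exact sign-flip permutation test over pairs was added for single genes. A fit without the replicate block counts 4 degrees of freedom that the batch correction had used. On simulated data centred by pair, with 0 changed genes among 14106, it made 312 calls and the fit with pairs made 0. With 200 genes changed by 0.5 or 1 log2 unit, the fit with pairs recovered 46.5% or 84%. The changed genes were drawn at random from all genes and kept their own spread, so these shares do not hold for the markers. The markers varied more over the pairs than the median gene, with SDs of the pair differences from 0.249 for *Anpep* to 1.00 for *Higd1b*.

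The members, the gene lists and the tests were chosen with earlier results of these data known. Named genes are the 10 members, the 2 genes with the smallest p in each list, paralogs of members, and the 5 genes whose paired differences correlate best with the mean of the members. Further genes of the lists were named after their values were seen, and 1 gene that the rule names is not reported here. Symbols, positions, exon lengths and overlaps came from GENCODE M21 on GRCm38. Genes sharing stretches of 50 bases were counted. Alternatives were no replicate block, 4 batches, limma-voom on adjusted counts, library size alone, median-of-ratios size factors, a prior count of 0.5, a mean of at least 1 log2 CPM, a trend in eBayes, a threshold of 0.10 and leaving out each pair.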

Additional observations from a re-analysis of the deposited data

Results flagged for a closer look

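Replicate 2 stood apart in the summed levels of 2 gene lists, and in no pericyte marker. The summed level of signals between endothelium and pericytes was 12.84 log2 CPM in control replicate 2 and 12.71 to 12.73 in the other control libraries, a gap of 0.79 of the whole range of the group, where 0.71 is the critical value for 5 samples. In APP/PS1 replicate 2 it was 12.71 against 12.82 to 12.85, a gap of 0.779. The summed level of OPC and oligodendrocyte genes was 6.34 in control replicate 2 and 7.77 to 8.34 in the others, a gap of 0.717, and 7.46 in APP/PS1 replicate 2 against 5.97 to 6.37, a gap of 0.734. In pair 2 the summed level of this second list was thus higher in the APP/PS1 library, in which the 10 pericyte markers were lower. The control and APP/PS1 values are mirror images after the batch correction, so each list stands for 1 observation. Chance alone would mark about 1 in 20 groups, or 2 of the 44 that were examined.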

How the results depend on the processing

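The median log2 fold change of the 10 pericyte markers kept its sign under every alternative, from −0.65 with limma-voom to −0.81 with library size alone, which moved the median of all genes to −0.0409, and from −0.53 to −1.0 when each pair was left out. Without the replicate block, 648 genes passed the adjusted threshold in place of 0, and 1 marker did, *Anpep* (adjusted p = 0.00622, against 0.126 to 0.929 under its other alternatives). With the 4 batches of the labels 1 gene passed, and with a pair left out between 0 and 5 genes did, none of them a marker. Markers with an unadjusted p under 0.05 numbered 1 to 10 when each pair was left out (1 without replicate 1 or replicate 4) and 7 to 10 otherwise. Markers lower in all pairs numbered 5 with library size alone and 3 to 10 when each pair was left out. The 10 came from leaving out replicate 5, the pair that ran the other way. Shares over all genes are not given beside these counts of markers. At a threshold of 0.10 no marker passed. The adjusted p-values of the main fit rest on 5 pairs, with 4 residual and 1.80 prior degrees of freedom. The adjusted counts after batch correction give no measure of counting error.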
